A study of Mus musculus with 4 samples.

Results

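The genes described here are the Wnt ligands, their Frizzled and Lrp receptors, the R-spondins and their Lgr receptors, the secreted Wnt inhibitors, and the pathway genes Axin2 and Lef1, in mouse lung with a floxed allele of the kinase IKKα and in wild type lung. They were chosen by gene symbol, with earlier results of these data known. Only probe sets of an Affymetrix array that carry 1 annotated symbol were used, with the brightest probe set standing for each gene. This gave 50 genes of 18193 on the array. Tcf7, which the choice also names, had no probe set listed under that symbol. The list holds 19 Wnt ligands, 10 Frizzled receptors, 2 Lrp co-receptors, 4 R-spondins, 3 Lgr receptors, 5 inhibitors that bind Wnt proteins (Wif1 and the Sfrp genes), 4 Dickkopf proteins, Axin2, Lef1, and Fzd10os, a noncoding RNA that lies next to Fzd10 and is no receptor.

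The tested lungs were IKKa floxed and the controls wild type, with 2 arrays each, all of strain B6/J as the labels write it. Both groups had received adenovirus with Cre recombinase into the trachea, and lungs were taken 4 months afterwards. Cre acts in cells that the virus enters, while RNA was taken from lung tissue, so cells that the virus did not enter would be measured too. The labels give neither the age of the mice nor whether both alleles were floxed, and do not say that each array is a separate animal, so p-values measure the spread between these arrays, which may be technical.

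Wnt proteins are secreted, lipid-carrying signals that bind a Frizzled receptor together with Lrp5 or Lrp6. In the canonical branch this keeps the protein β-catenin from being degraded, and β-catenin then switches on genes through factors of the TCF/LEF family. In the lung the pathway is known for forming the organ in the embryo and for keeping a fraction of type 2 alveolar cells in a progenitor state in the adult.

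The arrays differed by more than the labelled genotype. The female-specific RNA Xist had 4246 and 4629 in IKKa floxed lungs, against 31.9 and 22.9 in wild type lungs, and the Y-linked gene Eif2s3y had 3.77 and 6.14 against 519 and 530.5. Sex pattern and genotype therefore cannot be told apart here, although none of the 50 genes lies on X or Y. The lung genes Sftpc, Sftpb, Sftpa1, Ager, Scgb1a1 and Cldn18 were bright on every array, with a summed intensity of 57140 to 63715 in IKKa floxed and 49592 to 50986 in wild type lungs. The ratio of 3′ to 5′ Gapdh signal, which rises as RNA degrades, was 1.44 and 1.68 in IKKa floxed lungs, against 1.18 and 1.10 in wild type lungs. For actin the gap was smaller, with ratios of 2.67 and 2.77 in IKKa floxed, against 2.65 and 2.46 in wild type lungs. The transcript of the floxed gene itself is not analysed here.

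The promoters of 4 members are given, though none of the 4 passed the test described below. Wif1, Lgr4 and Lef1 had the smallest adjusted p-values among members with an entry in the RefSeq promoter table, and Axin2 is a classic target of the pathway. Each line gives the 250 bases before the RefSeq start in build GRCm38.p6, 5′ to 3′, with every CpG in capitals.
Wif1 (chr10:121033754-121034003, + strand): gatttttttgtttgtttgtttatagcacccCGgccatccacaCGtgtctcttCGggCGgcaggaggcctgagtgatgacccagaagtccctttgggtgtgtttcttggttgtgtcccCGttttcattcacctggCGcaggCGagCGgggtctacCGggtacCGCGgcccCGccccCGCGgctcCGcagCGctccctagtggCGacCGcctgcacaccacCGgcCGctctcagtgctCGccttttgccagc
Lgr4 (chr2:109917397-109917646, + strand): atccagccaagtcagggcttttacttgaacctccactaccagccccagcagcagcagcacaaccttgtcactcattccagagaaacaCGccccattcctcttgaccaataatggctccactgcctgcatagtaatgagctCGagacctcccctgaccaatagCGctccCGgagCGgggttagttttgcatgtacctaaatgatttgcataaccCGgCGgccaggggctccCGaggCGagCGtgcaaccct
Lef1 (chr3:131110047-131110296, + strand): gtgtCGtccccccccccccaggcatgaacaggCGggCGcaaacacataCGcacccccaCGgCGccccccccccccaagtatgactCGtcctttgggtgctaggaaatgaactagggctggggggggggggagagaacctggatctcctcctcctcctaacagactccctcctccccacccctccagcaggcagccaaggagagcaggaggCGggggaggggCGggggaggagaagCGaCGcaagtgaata
Axin2 (chr11:108920099-108920348, + strand): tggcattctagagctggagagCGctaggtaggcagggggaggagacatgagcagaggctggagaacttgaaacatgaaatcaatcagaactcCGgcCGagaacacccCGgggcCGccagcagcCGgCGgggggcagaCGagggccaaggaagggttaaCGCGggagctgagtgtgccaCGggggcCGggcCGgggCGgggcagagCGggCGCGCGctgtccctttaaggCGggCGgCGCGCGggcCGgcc
These windows held 21 CpGs for Wif1, 10 for Lgr4, 11 for Lef1 and 24 for Axin2, where the first listed promoter of all 27025 genes in the table had a median of 6. Over the 32 members with an entry the median was 22 and the range 5 to 48, so the promoters of the family were mostly rich in CpG. A core of the TCF/LEF site, CTTTGA, was searched on both strands. It stood in none of the 4 windows and in 3 of 32 members (9.38%; Fzd1, Wnt11 and Dkk1), against 14% of all genes' windows. The shares are not alike in base content, as the median share of G and C was 68.6% for members and 52% for all genes. No other form of the site and no bases outside the windows were searched, so absence here does not mean that a gene lacks a site. Lef1 has 4 starts in the table and the first listed is shown. Sfrp1 and Fzd10os are named without a sequence.

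No Wnt gene passed the test between IKKa floxed and wild type lungs. Of the 50 genes, 32 were bright enough to be tested, with a mean intensity of at least 21.0 over the 4 arrays. By limma with Benjamini-Hochberg adjustment over all 12735 genes tested, 0 of the 32 had an adjusted p under 0.05 in either direction, where 225 genes, or 1.77% of all tested, did (145 genes without wild type replicate 2). The rate was 1.01% for genes higher in IKKa floxed lungs and 0.762% for genes lower. Before adjustment, 5 of 32 members (15.6%) had a p under 0.05, against 14.3% of all genes. Fzd10os, 1 of the 5, was bright enough to be tested only through the group in which it was higher. Both shares are near the background, so the family as a whole did not stand out from the array.

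The directions leaned to lower values, by little. Log2 fold changes, on the scale log2(intensity + 16) and given as IKKa floxed over wild type throughout, lay above 0 for 10 members and below 0 for 22, with a median of -0.08, beside 4.7e-05 over all genes tested. Without wild type replicate 2 the median of the members was 0.00. The 2 groups of arrays did not overlap for 10 of 32 members (31.2%), 3 higher, Fzd10os among them, and 7 lower, Rspo3 among them, and this was so for 45.8% of all genes. On the log2(intensity + 16) scale the 95% interval, taken gene by gene, stayed inside 2-fold both ways for 29 of the 32, and the exceptions were Fzd10, Sfrp2 and Fzd10os. This scale shrinks changes of dim genes, so the interval does not bound the fold in intensity. With a pseudocount of 1 in place of 16, Lgr4 stood at -0.69 ± 0.16 SE and Rspo3 at -0.54 ± 0.27 SE.

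**Figure D1:**
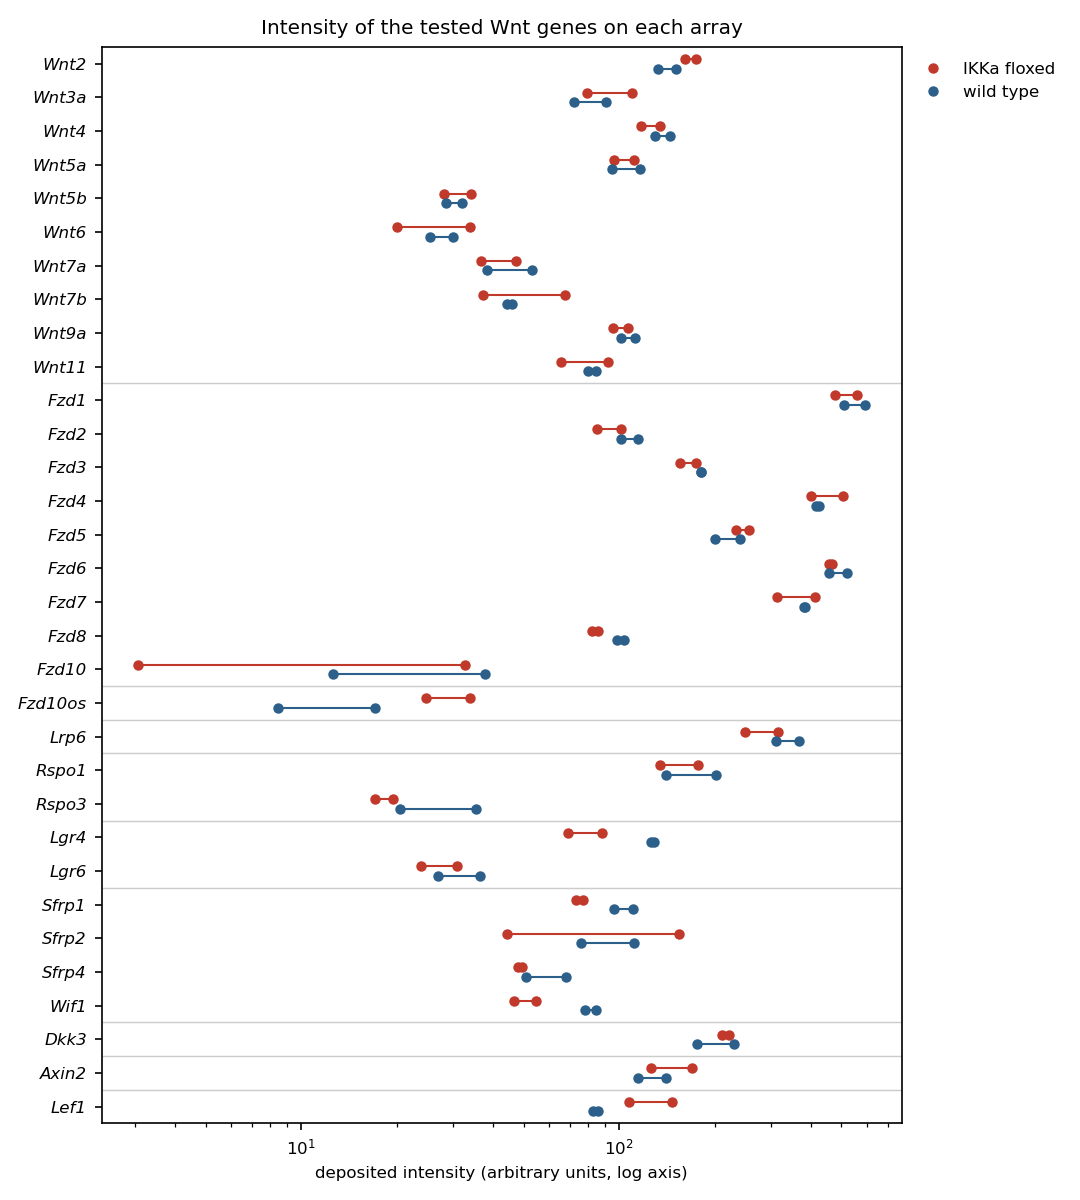
Deposited intensity (log axis) of the 32 tested Wnt genes, ordered by role, with 1 point per array, IKKa floxed in red above wild type in blue and a line joining the 2 arrays of a group. Lgr4, Wif1 and Sfrp1 have both red points left of both blue points, Lef1 and Fzd10os the reverse, and Sfrp2 and Fzd10 have the widest red lines. Brightness depends on the probes, so levels are not compared between genes.

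**Figure D2:**
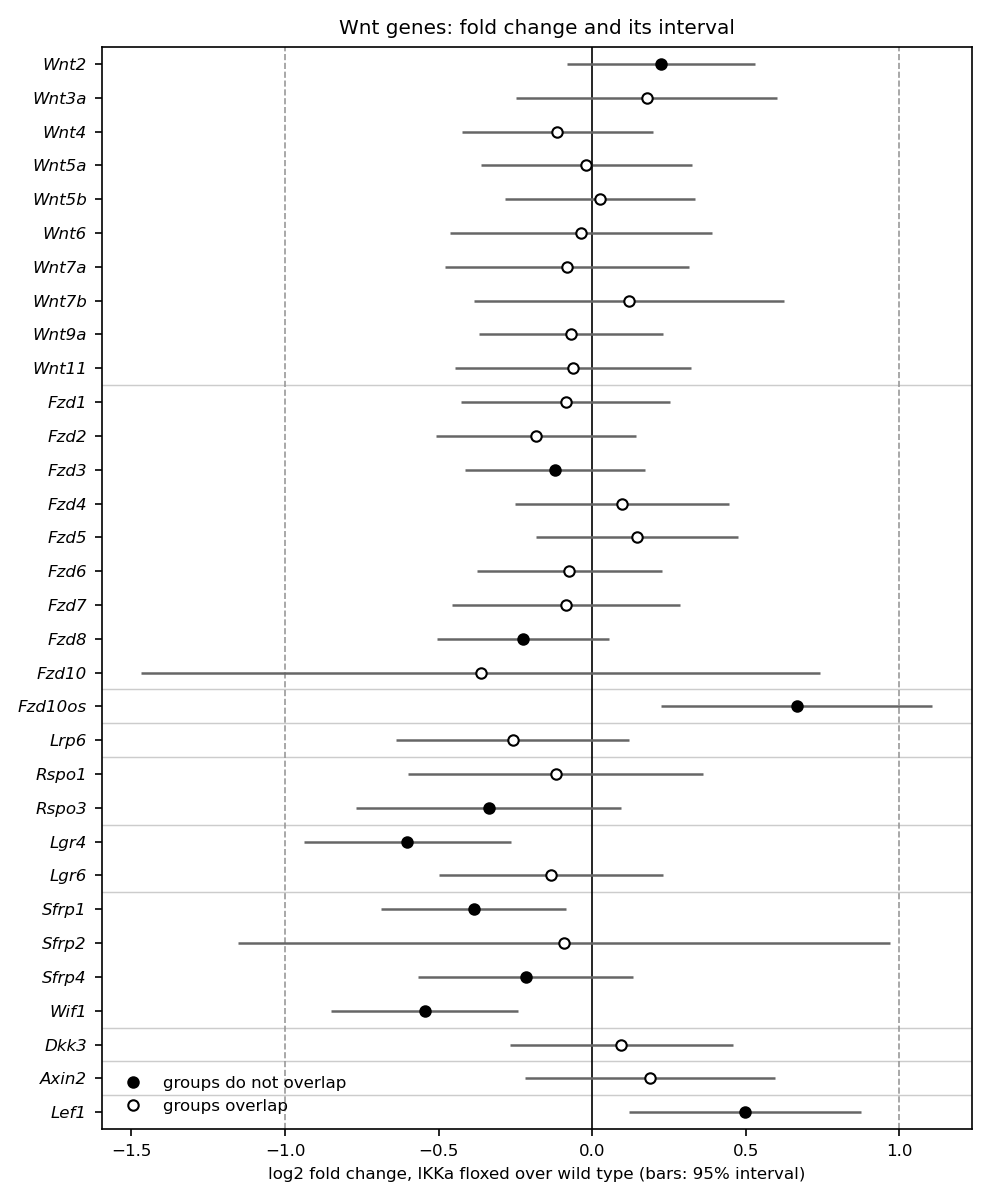
Log2 fold change of each tested Wnt gene, IKKa floxed over wild type, with its 95% interval from the limma fit. Filled points mark the 10 genes whose groups do not overlap, dashed lines mark 2-fold, and none of the 32 has an adjusted p under 0.05.

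Among the ligands, Wnt2, which specifies lung endoderm in the embryo together with Wnt2b, was the 1 tested gene of 10 whose arrays did not overlap, where 45.8% of all genes had none. It had 175 and 161 in IKKa floxed lungs, against 132 and 151 in wild type lungs (log2 fold change 0.22 ± 0.13 SE, limma adjusted p = 0.50). Both floxed arrays were the brighter ones, by a margin smaller than the test could call. Wnt3a, a standard activator of the canonical branch, had 79.2 and 110.1 in IKKa floxed against 71.8 and 90.9 in wild type lungs (0.18 ± 0.18 SE, limma adjusted p = 0.718), with overlapping groups. Its neighbour in the genome, Wnt9a, stood at -0.07.

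On their tested probe sets, ligands known for other branches of the pathway or for the lung epithelium lay closer to 0. Wnt5a, the main activator of β-catenin-independent signalling, averaged 104 ± 10.6 in IKKa floxed and 105 ± 15.2 in wild type lungs (SD, n = 2 each; -0.02 ± 0.14 SE, 95% interval -0.36 to 0.32). Its other probe sets, all dimmer, ran from -0.25 to 0.54. Wnt7b, made by airway and alveolar epithelium, had 67.3 and 37.2 in IKKa floxed and 44.5 and 46.1 in wild type lungs, so the floxed arrays lay on either side of the controls (0.12 ± 0.21 SE). Its dimmer probe set stood at -0.38. Wnt4, Wnt5b, Wnt6, Wnt7a and Wnt11 ranged from -0.11 for Wnt4 to 0.02 for Wnt5b, all with overlapping groups. The other 9 ligands, Wnt1, Wnt2b, Wnt3, Wnt8a, Wnt8b, Wnt9b, Wnt10a, Wnt10b and Wnt16, were too dim to test, with no array above 22.6.

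Frizzled receptors span the membrane and bind the ligands. The brightest probe sets of the family were those of Fzd1, Fzd6 and Fzd4. Fzd1 had 559 and 479 in IKKa floxed lungs, against 509 and 594 in wild type lungs (-0.09 ± 0.14 SE, limma adjusted p = 0.839). Fzd6 had 465 and 458 in IKKa floxed, against 456 and 520 in wild type lungs (-0.07 ± 0.13 SE, limma adjusted p = 0.845). The groups overlapped for both genes, and for Fzd6 both floxed arrays lay between the controls. Fzd4, which is highly expressed by endothelial cells and also serves the ligand norrin, had 402 and 508 in IKKa floxed and 417 and 426 in wild type lungs (0.10 ± 0.15 SE, limma adjusted p = 0.824). The summed endothelial markers gave 12239 and 13077 in IKKa floxed and 11426 and 12175 in wild type lungs, with 0 of 10 genes called.

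Fzd5 and Fzd8 were the receptors at either end by the moderated t. Fzd5 had 232 and 256 in IKKa floxed, against 200 and 240 in wild type lungs (0.15 ± 0.14 SE, limma adjusted p = 0.696), and the groups overlapped. Fzd8 had 85.5 and 82.1 in IKKa floxed, against 98.1 and 103 in wild type lungs (-0.22 ± 0.12 SE, limma adjusted p = 0.458), with no overlap. Its second, dimmer probe set stood at 0.12, opposite in sign. Fzd2, Fzd3 and Fzd7 lay between -0.18 and -0.09. Fzd10 could not be placed, with 3.06 and 32.8 in IKKa floxed and 37.9 and 12.6 in wild type lungs, and Fzd9 was too dim to test, with no array above 4.68.

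Fzd10os had 34.1 and 24.6 in IKKa floxed lungs, against 17.0 and 8.46 in wild type lungs. Both floxed arrays were brighter than both controls. The mean over the arrays, 21.0, only just reached the limit for testing, and it did so through the floxed arrays, while the wild type mean of 12.7 lay well under the limit. The log2 fold change of 0.67 is therefore given as a description. Rspo3 and Fzd10 likewise reached the limit through 1 group, the wild type lungs. Lgr5, at 20.4, was the brightest member below it.

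The co-receptor Lrp6, required together with Frizzled for the canonical signal, had 249 and 316 in IKKa floxed lungs, against 311 and 368 in wild type lungs (-0.26 ± 0.16 SE, limma adjusted p = 0.531). The groups overlapped narrowly, and its other probe set gave -0.31. Lrp5 was too dim to test, with 13.9 and 21.1 in IKKa floxed and 3.95 and 16.8 in wild type lungs.

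R-spondins and Lgr receptors make cells more sensitive to Wnt by removing the ubiquitin ligases Znrf3 and Rnf43, which otherwise take Frizzled off the surface. Lgr4, the widely expressed receptor of the group, had 68.9 and 88.3 in IKKa floxed lungs, against 126 and 128 in wild type lungs. Both floxed arrays were dimmer than both controls, which differed little from each other. The log2 fold change was -0.60 ± 0.14 SE (95% interval -0.94 to -0.27), and the adjusted p of 0.114 by limma missed the threshold. Its second probe set, with all arrays under 12, also pointed down (-0.35).

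Over the alternatives tried, the adjusted p of Lgr4 ran from 0.0602, without IKKa floxed replicate 2, to 0.353, without wild type replicate 2. Lgr6 stood at -0.13 ± 0.15 SE, with 23.9 and 30.9 in IKKa floxed and 27.0 and 36.4 in wild type lungs. This value was unstable, at 0.01 without wild type replicate 2 and -0.36 with the mean of its probe sets, the second of which gave -0.59. Lgr5 was not tested. Rspo3, an R-spondin of endothelial and mesenchymal cells, had 17.0 and 19.4 in IKKa floxed, against 35.3 and 20.4 in wild type lungs (log2 fold change -0.34), so the gap came mostly from 1 wild type array, and it was -0.09 without wild type replicate 1. Rspo1 averaged 155 ± 30.1 in IKKa floxed and 171 ± 43.8 in wild type lungs (SD, n = 2 each; -0.12 ± 0.20 SE), and Rspo2 and Rspo4 were too dim to test.

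Of the inhibitors that bind Wnt proteins outside the cell, all 4 tested lay below 0, and 3 of them, Wif1, Sfrp1 and Sfrp4, had no overlap between the groups, as did 22.2% of all genes on the lower side. Wif1, a secreted Wnt trap whose human counterpart is often silenced in lung cancer, had 54.8 and 46.6 in IKKa floxed lungs, against 78.1 and 84.4 in wild type lungs. The groups did not overlap, and the log2 fold change was -0.55 ± 0.13 SE (95% interval -0.85 to -0.24, limma adjusted p = 0.114). This was the smallest adjusted p of any member, close to that of Lgr4, and it too missed the threshold. The array has 1 probe set for Wif1. Fewer cells that make a transcript and less of it per cell cannot be told apart in whole lung.

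Sfrp1, a secreted decoy with a Frizzled-like domain, had 73.1 and 76.8 in IKKa floxed, against 96.0 and 110.2 in wild type lungs (-0.39 ± 0.13 SE, limma adjusted p = 0.232). Of its 5 probe sets, 4 pointed down, as far as -0.45, while the one whose name ends in _x_at, a class whose probes may also bind other transcripts, stood at 0.19. Sfrp4 had 49.4 and 48.0 in IKKa floxed, against 51.1 and 68.2 in wild type lungs (-0.22 ± 0.15 SE). The gap came mostly from 1 wild type array, and it was -0.05 without wild type replicate 2. Sfrp2 was the most uneven of the inhibitors, with 44.5 and 154 in IKKa floxed and 75.8 and 112 in wild type lungs, and its interval ran from -1.15 to 0.97. Sfrp5 was too dim to test.

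Of the Dickkopf proteins, the classic members of which block Lrp5 and Lrp6, Dkk3 alone was bright enough to test. This divergent member had 211 and 222 in IKKa floxed and 176 and 230.0 in wild type lungs (0.09 ± 0.15 SE). Dkk1, Dkk2 and Dkk4 had no array above 29.6.

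**Figure D3:**
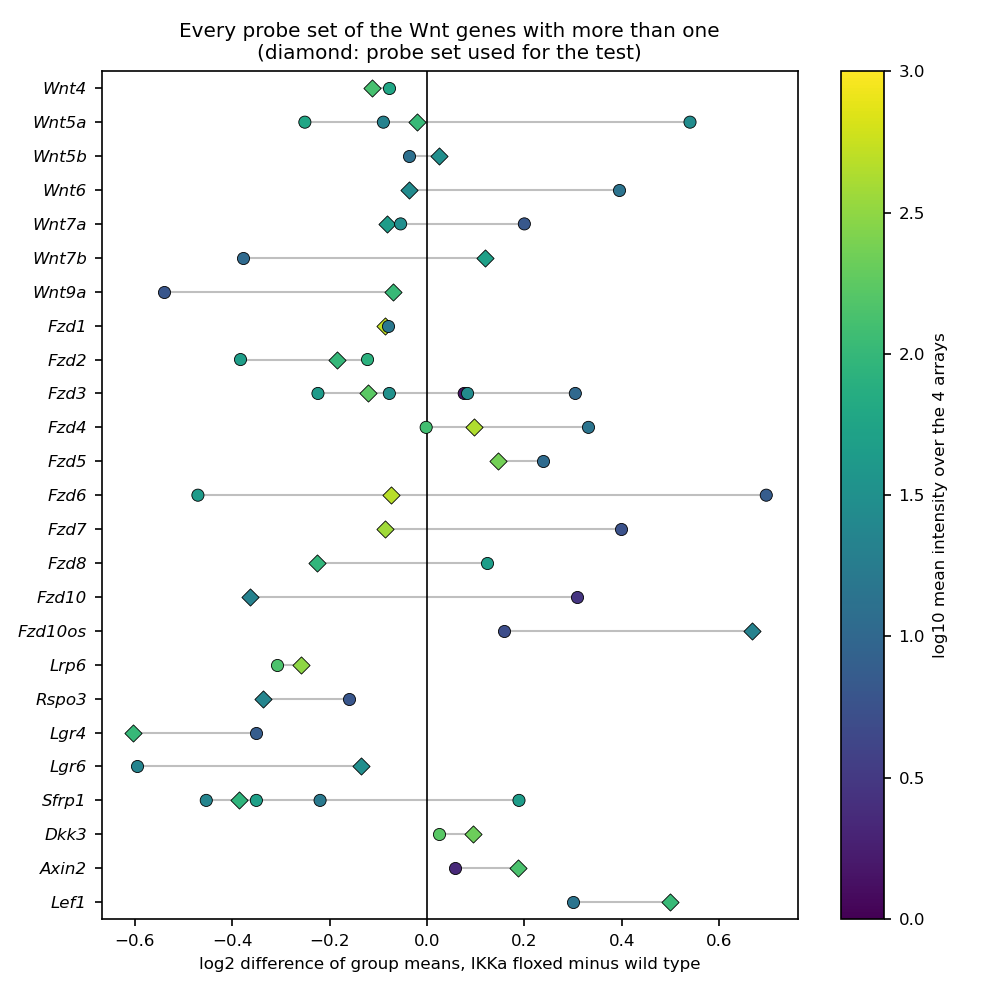
Log2 difference between group means, IKKa floxed minus wild type, for every probe set of the 25 tested Wnt genes that have more than 1, with the tested probe set as a diamond and colour showing mean intensity. Probe sets of 13 genes share a sign, among them Lgr4, Lef1 and Lrp6, and those of 12 do not, among them Sfrp1, Wnt5a and Fzd6. The dim probe sets (dark) lie farthest from 0 for Fzd6 and Fzd7.

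Probe sets of a gene often disagreed. Of the 25 tested members with more than 1, the differences shared a sign for 13 and were mixed for 12. For Fzd6 they ran from -0.47 to 0.70 and for Wnt5a from -0.25 to 0.54. The 0.70 of Fzd6 was on a dim probe set, with no array above 15.2. The 0.54 of Wnt5a came from 29.0 and 43.8 in IKKa floxed, against 18.8 and 20.6 in wild type lungs, without overlap.

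Axin2, which brakes the pathway and is one of its direct targets in many tissues, gave no sign of a shift that the test could call. It had 126 and 169 in IKKa floxed lungs, against 140 and 114 in wild type lungs (0.19 ± 0.17 SE, 95% interval -0.22 to 0.59, limma adjusted p = 0.680). The groups overlapped, and without IKKa floxed replicate 2 the difference was -0.00.

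Lef1, a factor through which β-catenin acts and which T lymphocytes also express, had 108 and 146 in IKKa floxed lungs, against 82.9 and 85.9 in wild type lungs (0.50 ± 0.16 SE, 95% interval 0.12 to 0.88, limma adjusted p = 0.222). Both floxed arrays were brighter than both controls. Its second probe set stood at 0.30, but it was dim and its groups overlapped. It had 22.5 and 12.5 in IKKa floxed, against 13.8 and 8.27 in wild type lungs. T cell markers moved on the same arrays. Their summed intensity over 14 genes was 1388 and 1214 in IKKa floxed, against 760 and 795 in wild type lungs. Of 11 tested, 10 lay above 0 (median 0.60). The test called 3 of them higher, Cd5, Cd8b1 and Cd3g, and none lower. The count was 1 without wild type replicate 2 or with a pseudocount of 1, 0 without the filter on dim genes, and 5 with the mean of all probe sets. Cd8b1, which encodes the CD8 beta chain, had 115 and 67.3 in IKKa floxed and 20.5 and 21.9 in wild type lungs. Cd3d had 277 and 175 against 102 and 91.0 and was not called (limma adjusted p = 0.0672). The defining marker Cd3e was too dim to test, with 14.8 and 10.4 against 5.85 and 32.2, and Cd4 stayed under 6. Within the floxed pair the array with more Lef1 on the tested probe set had the lower T cell sum. On the second Lef1 probe set the order was the reverse. Proliferation genes moved on these arrays too. All 13 tested lay above 0 (median 0.68), and 5 were called higher, Ube2c, Rrm2, Mki67, Mcm5 and Nusap1. The sums were 1512 and 1512 in IKKa floxed and 931 and 782 in wild type lungs. The count of 5 was 0 to 3 with 1 array left out, 3 with a replicate block, and 0 with a pseudocount of 1 or without the filter. The part of T cells or of proliferation in the Lef1 values was not tested.

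Cardiac muscle markers differed far more than any Wnt gene. All 12 cardiac muscle genes lay below 0, and 10 were called lower. Their sum was 683 and 533 in IKKa floxed, against 5025 and 7448 in wild type lungs. Smooth muscle genes summed to 3045 and 2641 in IKKa floxed and 4340 and 4828 in wild type lungs, with 2 of 10, Acta2 and Myh11, lower by the test. Neither was called without wild type replicate 2, without IKKa floxed replicate 2, with a replicate block, with a pseudocount of 1 or without the filter on dim genes, and 1 was called without wild type replicate 1 or with quantile normalization. Of 15 fibroblast genes, 9 lay below 0 and 6 above. The test called 1 lower, the proteoglycan gene Dcn (0 with the mean of all probe sets). The fibroblast sums were 13315 and 13630 against 15111 and 15591. Airway secretory genes had 7 of 11 called lower, while 3 of 11 lay above 0. By the moderated t the first of the 7 were Reg3g, Scgb3a1, Bpifb1 and Tff2, at -3.59, -4.29, -2.64 and -1.98. The summed level, 52250 and 43624 in IKKa floxed and 49227 and 50844 in wild type lungs, overlapped. The bright genes Scgb1a1, Scgb3a2, Cyp2f2 and Aldh1a1, none of them called, made up most of that sum, so it says little of the dimmer genes. Adipocyte genes had 3 of 6 tested called lower, and skeletal muscle genes 1 of 3, Ckm, with a median of -0.32. The skeletal muscle count was 0 with a pseudocount of 1, the stricter filter, quantile normalization or the mean of all probe sets. Without the filter the counts were 6 for cardiac muscle, 3 for airway secretory, 1 for adipocyte and 0 for skeletal muscle genes, and with a pseudocount of 1 the airway secretory count was 2. Of 10 tested ciliated cell genes, 0 were called, while 9 lay below 0 (median -0.38). Their sums were 4676 and 3868.5 in IKKa floxed, against 5125 and 5130 in wild type lungs. All these shifts ran alongside the lower Wif1, Lgr4 and Sfrp1 values, and their part in them was not tested.

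**Figure D4:**
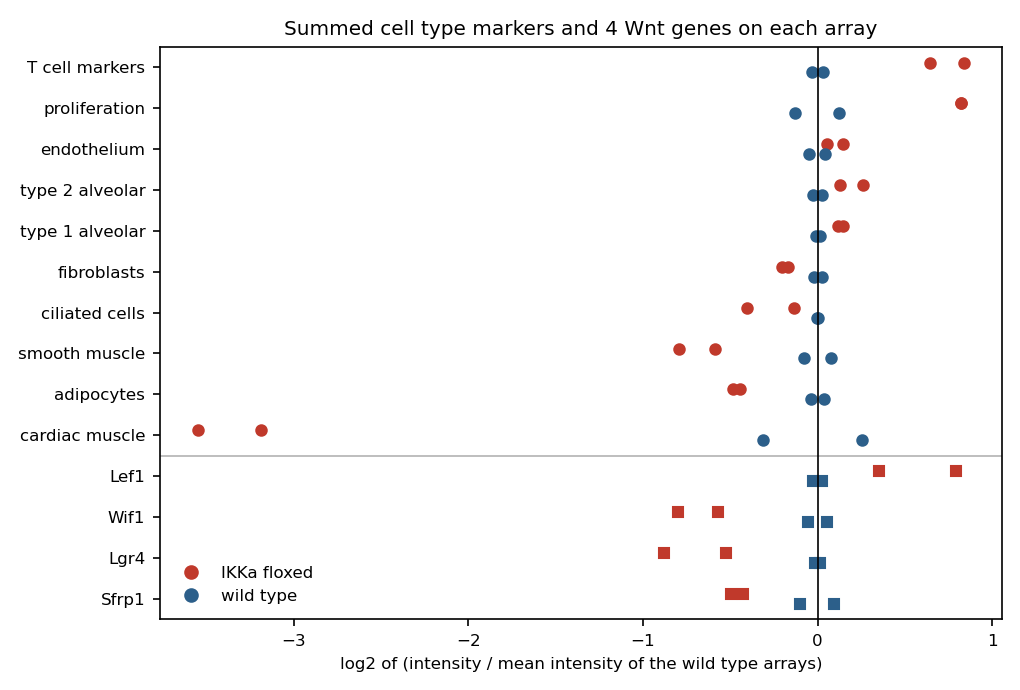
Summed intensity of cell type markers (circles) and intensity of 4 Wnt genes (squares) on each array, as log2 of the value over the mean of the wild type arrays, with IKKa floxed in red above wild type in blue. The floxed arrays lie lowest for cardiac muscle, where the sums were 683 and 533 against 5025 and 7448, and the 4 Wnt genes lie within 1 of 0.

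Other genes of the Wnt pathway did not pass the test either. A list of 83 other genes, from Wnt secretion to transcription, had 81 on the array and 69 bright enough to test, and 0 had an adjusted p under 0.05 by limma, with 9 at an unadjusted p under 0.05 (13%), beside 1.77% and 14.3% of all genes tested. The median log2 fold change was -0.01, with 32 above 0 and 37 below. Ctnnb1, the gene of β-catenin, named outside the rule for this list, averaged 7931 ± 397 in IKKa floxed and 7394 ± 63.2 in wild type lungs (SD, n = 2 each; 0.10 ± 0.12 SE). Its dimmer probe sets pointed the other way, at -0.22 and -0.54.

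By the moderated t the genes farthest above 0 were Ccn1, Dact3, Vangl2 and Lbh. Ccn1, a matrix protein made in response to growth factors and to Wnt, had 684 and 846 in IKKa floxed lungs, against 477 and 419 in wild type lungs (0.75 ± 0.15 SE, limma adjusted p = 0.0727). Its groups lay well apart, and it passed under 3 of the 12 alternatives. Dact3, an antagonist that binds Dishevelled, stood at 0.50, Vangl2, a core protein of planar cell polarity, at 0.46, and Lbh, a transcription cofactor, at 0.45 (limma adjusted p = 0.148, 0.194 and 0.255).

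Cxxc4, Tpbg, Ror1 and Dact1 were farthest below 0. Ror1, a receptor for Wnt5a, had 85.5 and 90.8 in IKKa floxed, against 116 and 125 in wild type lungs (-0.39 ± 0.12 SE, limma adjusted p = 0.208). Cxxc4, an inhibitor that binds Dishevelled, stood at -0.40, Tpbg, a membrane glycoprotein that dampens canonical Wnt signalling, at -0.50, and Dact1 at -0.32 (limma adjusted p = 0.206, 0.207 and 0.331). None of these passed. Tpbg reached the limit for testing only through the wild type lungs, and its 3 probe sets were mixed in sign, as were those of Cxxc4. Porcn, which attaches the lipid to Wnt proteins, and Wls, which carries them to the cell surface, stood at -0.01 and -0.33 and did not pass either.

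**Figure D5:**
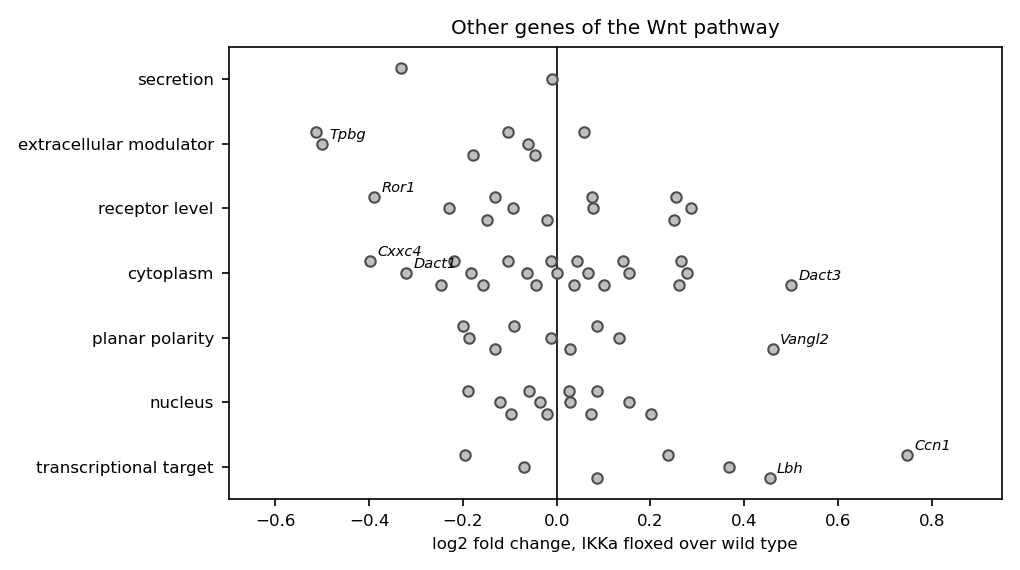
Log2 fold change, IKKa floxed over wild type, of the 69 tested genes of the Wnt pathway outside the family, with 1 point per gene in a row for its role, spread vertically for legibility. The 8 named genes are those with the largest moderated t in each direction, from Tpbg at -0.50 to Ccn1 at 0.75, and none of the 69 has an adjusted p under 0.05.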

How the data were processed

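Each of the 4 RNA samples was hybridised to its own Affymetrix array, read in a single colour. The authors deposited linear intensity values, made with Affymetrix Expression Console per the submitters' processing notes. The sources used here give neither its version nor its algorithm. Trimming 2% from each end gave all arrays the same mean, 150.001, which shows that they were scaled before deposit. Of 45101 probe sets, 34945 had 1 symbol in the platform annotation, 932 had several and 9160 were not listed. Array medians of log2 values differed by 0.0647, under the 0.1 set for quantile normalization, and no further normalization was applied. A gene was tested if its mean intensity reached the 30th percentile. Log2(intensity + 16), which understates changes of dim genes, was compared with limma 3.58.1 in R 4.3.3 (eBayes, two-sided, no covariates, 4.67 prior and 2 residual degrees of freedom). Precision is limited by 2 arrays a group, and an exact permutation test cannot give a p below 0.333. The procedure was tested on simulated data.

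Members and lists were chosen with earlier results of these data known. Named members were those called, the 6 per direction with the largest moderated t and the 3 brightest, with other members by level or range. Of the pathway list, 4 per direction were named. Other members were grouped by role. The roles of Dact1, Dact2, Dact3 and Notum among the pathway genes were corrected after values were seen, which moves points between rows of the pathway plot and changes no test. Marker lists covered cells that whole lung could hold. Those not described in the report gave these medians over their tested genes: B cells -0.13, mesothelium -0.03, type 2 alveolar cells 0.09, and type 1 alveolar cells 0.09. Samples with the same replicate number did not deviate together across all genes tested (r = 0.00209), so the numbers were not taken as pairs. The summed mesothelial markers were nonetheless higher in replicate 2 of both groups. Replicates 1 and 2 had 1658 and 2514 in IKKa floxed, and 1849 and 2340 in wild type lungs. The alternatives were other pseudocounts, filters, normalization, variance prior and probe set rule, each array left out, and a replicate block.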

Additional observations from a re-analysis of the deposited data

How the results depend on the processing

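Under all 12 alternatives tried, 0 Wnt genes passed the limma test. The lowest adjusted p of any tested member was 0.0602, for Lgr4 without IKKa floxed replicate 2. The count of all genes called moved from 225 to 110 with a pseudocount of 1, 362 with 64, 388 with a trended, robust prior, and 69 without the filter. It ran from 145 to 251 with 1 array left out, and was 198 with a replicate block. The median of the members ran from -0.11 to 0.00 with 1 array left out and was -0.08 with the block. Axin2 ran from -0.0017 to 0.38 with 1 array left out, the lowest without IKKa floxed replicate 2, and Cxxc4 reversed to 0.04 with the mean of all probe sets. Ccn1 passed with a pseudocount of 64, the stricter filter, and the trended, robust prior (limma adjusted p = 0.0129, 0.0360 and 0.00888). The causes were not tested. Dim probe sets have no stated floor, so no fold is given as a bound. Each interval is for 1 gene, without adjustment over genes, and is not a limit of what the test could call.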
